A study of Mus musculus with 7 samples.

Results

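The genes of the potassium, calcium, chloride and sodium channels were examined in the tibialis anterior (TA), a fast-twitch muscle at the front of the lower hind leg, of mice with and without *Mybpc2*. This gene encodes fMyBP-C, the fast skeletal form of myosin binding protein C. The channel genes were taken by symbol, as every gene whose symbol starts with *Kcn*, *Cacn* or *Clcn*, or with *Scn* and a digit, leaving out *Cacna1s*, the pore gene of the muscle calcium channel. They numbered 55 of 12239 genes, with 28 potassium, 14 calcium, 6 chloride and 7 sodium channel genes. The symbols chose the genes and no measured value did. One of the potassium entries, *Kcnq1ot1*, is an RNA transcribed opposite *Kcnq1* and encodes no channel.

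The WT group held 4 libraries from male FVBN mice aged 5 to 6 months. The C2-/- group held 3 libraries from male mice of the same age, in which exons 2 to 22 of *Mybpc2* were replaced by a Neo cassette between LoxP sites. The study keeps this allele on the FVBN background, and the gene is disrupted throughout the animal, so that an effect in muscle fibres and one arising elsewhere are not separated. The labels number the libraries within each group, and the headers of the table give each library a further identifier of its own whose meaning is not stated. The p-values measure the spread between these libraries.

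Muscle fibres fire when sodium channels open and carry the action potential over the surface and into the transverse tubules. There a calcium channel complex senses the voltage and triggers calcium release from the sarcoplasmic reticulum. Chloride and inward rectifier potassium channels hold the resting potential near the potassium level, and delayed rectifier potassium channels end each spike. Accessory subunits set the gating and surface density of the pore subunits in all of these families.

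The libraries stood apart in depth as well as in genotype. WT replicates 1 to 3 held 14929214 to 15464499 reads in the table, and WT replicate 4 and the C2-/- libraries held 2613277 to 4917936, and only WT replicate 4 was a WT library of C2-/- depth. The log2 value of *Mybpc2* was 12.41 to 12.85 in WT and -0.47 to 1.67 in C2-/-, a change of -11.82 (limma adjusted p = 4.85e-07) in the direction of the labels. Values below are log2 CPM, the log2 of the reads of a gene per 1000000 reads after TMM scaling, with 0.5 reads added, and a change is the C2-/- mean minus the WT mean. The SE beside it is the standard error from the limma fit. A gene passed the threshold with an adjusted p under 0.05 over all 12239 genes and a fold change above 1.5. The median change over all genes was -0.14, and 0.02 after each library was centred on its median.

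The summed levels of the sodium, potassium and chloride channel genes were lower in C2-/-, and that of the calcium channel genes was not. Summed over its 7 genes, the sodium channel level was 1526 to 1927 CPM in the WT libraries and 565 to 606 CPM in the C2-/- libraries, 3.0-fold lower (means 1736 ± 176, SD, n = 4, and 579 ± 23.3, SD, n = 3). The potassium channel sum was 1380 to 1519 CPM in WT and 892 to 1046 CPM in C2-/- (1.5-fold lower). For the chloride channels it was 351 to 423 CPM in WT and 226 to 277 CPM in C2-/- (1.58-fold lower). In these 3 families the groups did not overlap, and WT replicate 4 lay with the other WT libraries. The calcium channel sum was 1070 to 1545 CPM in WT and 1519 to 2241 CPM in C2-/-, with WT replicate 4 (1545) inside the C2-/- range. *Cacna2d1* alone made up 39.3% to 61.4% of that sum in WT and 75.2% to 85.8% in C2-/-. The other calcium channel genes together were 596 to 686 CPM in WT and 241 to 377 CPM in C2-/-, lower in every C2-/- library. In bulk muscle, fewer cells of a type and less RNA per cell cannot be told apart.

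**Figure D1:**
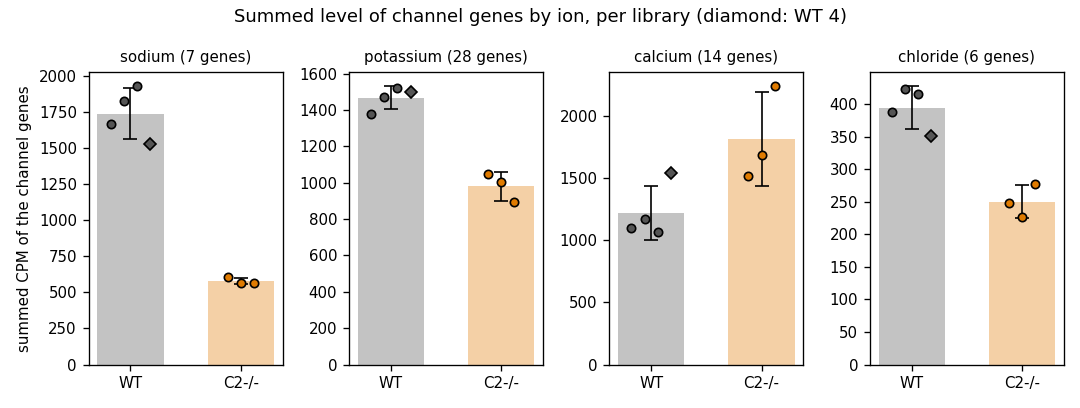
Summed CPM (linear axis from 0) of the channel genes of each ion in every library, with 4 WT and 3 C2-/- libraries as points, group means as bars, SD as error bars and WT 4 as a diamond. The sodium sum of every C2-/- library (565 to 606) lies far below that of every WT library (1526 to 1927), whereas in calcium the highest WT library (1545) lies within the C2-/- range.

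Gene by gene, 25 of the 55 passed the threshold, 5 higher and 20 lower in C2-/-. Over all 12239 genes the corresponding shares were 45.2% in either direction, 20.2% higher and 25.0% lower, so the 25 channel genes (45.5%) are about as many as the background gives. The split between directions was 20 lower to 5 higher in the channels and 3055 to 2473 over all genes. The median change was -0.59 in the 55 channel genes and -0.14 in all genes. Without *Kcnq1ot1* these figures were 24 of 54 genes and a median of -0.60. The C2-/- values lay wholly above the WT values in 6 channel genes and wholly below them in 20, 26 in all, where 22.6%, 26.7% and 49.3% of all genes did so. Voom on the recovered reads also called 25 channel genes, beside 49.1% of all genes. Centred on the median of each library, 24 channel genes passed, 5 higher and 19 lower, and the split over all genes turned to 2594 lower and 3040 higher. With quantile normalization the channels split into 20 lower and 8 higher and all genes into 2760 lower and 2883 higher. Each of the 25 kept its direction when the C2-/- mean was set against WT replicate 4 alone, as did 99.2% of all genes past the threshold, and in *Scn7a*, *Cacna2d1* and *Kcnn1* the value of WT replicate 4 sat on the C2-/- side, closer to those 3 libraries on average than to WT replicates 1 to 3.

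Calls were most frequent among the well-expressed channels. Of the 29 genes whose log2 values averaged 3 or more over the 7 libraries, 22 passed, 4 higher and 18 lower, where 52.9% of all 7816 genes at that level passed, 26.6% higher and 26.3% lower. After the correction for GC content described below, 9 of these 29 passed, 3 higher and 6 lower (median change 0.079), where 25.5% of all genes at that level did. Below that level 3 of 26 passed, where 31.4% of all genes did, and all 3 C2-/- libraries held 3 reads or fewer in *Cacna1g* and *Kcnq1*. *Cacna1g*, which encodes a T-type calcium channel pore, had a change of -1.88 (limma adjusted p = 0.123, corrected -0.42). *Kcnq1* had a change of -1.16 (limma adjusted p = 0.34, corrected 0.15). The groups overlapped in both genes, and neither change passed the threshold.

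The direction of the change followed the base composition of the transcripts. The 5 genes that rose had transcripts of 40.2% to 41.2% G and C, and the 20 that fell had 44.4% to 63.3%, with a median of 57.0%. Across the 55 genes Spearman's correlation between GC content and change was -0.51, and across 12176 genes with an annotated transcript it was -0.68. These are descriptions over genes that share the same 7 libraries. Among the 9 channel genes under 45% GC, 5 rose and 1 fell, where 52.1% of all such genes rose, and from 55% to 60% none of 18 rose and 10 fell, where 55.6% of all genes in that range fell. At 60% or more 3 of 4 fell, against 66.9% of all genes. The 75-base coding stretches below show the range, each the first stretch of coding sequence within 1 exon whose GC share is the closest found to that of its whole transcript in the GENCODE annotation. The genes are *Kcnj2*, which rose, *Kcnab1*, which fell and has the lowest GC content of the genes that did, and *Clcn1* and *Kcna7*, which fell. The sequences are on GRCm38, 5′ to 3′ along the gene, and the capitals mark G and C.
Kcnj2, exon 2 of 2, chr11:111072470-111072544, plus strand, 31 of 75 bases G or C: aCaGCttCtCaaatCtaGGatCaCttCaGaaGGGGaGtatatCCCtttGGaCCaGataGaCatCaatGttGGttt
Kcnab1, exon 12 of 14, chr3:65364603-65364677, plus strand, 33 of 75 bases G or C: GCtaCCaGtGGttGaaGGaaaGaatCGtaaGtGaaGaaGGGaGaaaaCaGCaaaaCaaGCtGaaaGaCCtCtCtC
Clcn1, exon 2 of 23, chr6:42290098-42290172, plus strand, 39 of 75 bases G or C: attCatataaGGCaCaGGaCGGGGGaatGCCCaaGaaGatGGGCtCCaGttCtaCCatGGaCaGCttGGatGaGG
Kcna7, exon 1 of 2, chr7:45406885-45406959, plus strand, 45 of 75 bases G or C: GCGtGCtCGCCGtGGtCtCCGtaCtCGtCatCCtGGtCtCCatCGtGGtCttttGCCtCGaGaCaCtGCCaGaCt

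The values were therefore also corrected for GC content, by fitting a smooth curve of log2 value on GC in each library and replacing it with the mean curve of the 7 libraries. After this correction 12 channel genes passed, 6 higher and 6 lower, where 20.6% of 12176 genes passed, 12.3% higher and 8.33% lower. The higher share among the channel genes that passed was thus 20.0% (5 of 25) before and 50% (6 of 12) after the correction. The correlation over the 55 genes became 0.12 and their median change 0.10. Calls in the same direction remained in 6 of the 25 genes, where they did in 29.9% of the 5528 genes past the threshold. *Scn4b*, *Cacng6*, *Kcnab1*, *Clcn1* and *Clcn7* were lower, and *Kcnq1ot1* was higher, with and without the correction. They also kept their calls in each of the 4 fits that combined the correction with leaving out WT replicate 4 or a C2-/- library, as did 65.8% of all genes with such calls. *Kcna7* turned from lower to higher, and this corrected call was lost without C2-/- replicate 2 (0.79) or 3 (1.005). *Clcn3* was lower, and *Clcn2*, *Cacna1a*, *Cacna2d2* and *Cacng7* were higher, after the correction and not past the threshold before it. Without the correction *Clcn2* also passed without WT replicate 4, with array quality weights and with the replicate block, *Cacna1a* without C2-/- replicate 2 and *Cacna2d2* with quantile normalization, all higher. The corrected call of *Clcn2* was lost without any single C2-/- library (1.96, 1.78 and 1.96 without replicates 1, 2 and 3), and that of *Cacna2d2* without C2-/- replicate 2 (1.86). *Clcn3*, *Cacna1a* and *Cacng7* kept theirs in these 4 fits. What makes the changes follow GC content was not tested, and genotype and the GC trend cannot be told apart here, so the corrected change is given below for every channel gene described on its own that passed, and for most of the others.

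**Figure D2:**
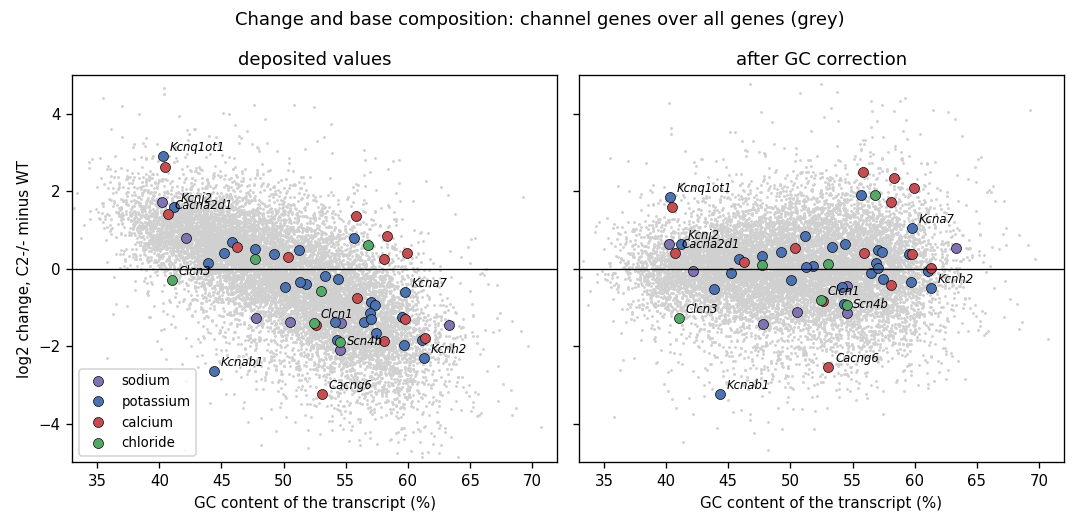
Log2 change (C2-/- minus WT) of each gene against the GC content of its transcript in percent, for the 55 channel genes coloured by ion over all annotated genes in grey, with deposited values on the left and GC-corrected values on the right. Grey points beyond the axes are not drawn. The falling trend over all genes (Spearman's correlation -0.68) is shared by the channel genes (-0.51) and absent after the correction (0.12), where *Kcnab1* and *Cacng6* remain far below 0.

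Both *Scn4a* and *Scn4b*, subunit genes of the muscle sodium channel, fell in C2-/-. *Scn4a*, the pore subunit of adult skeletal muscle, was 8.91, 9.21, 9.17 and 8.85 in WT replicates 1 to 4 and 7.76, 7.46 and 7.67 in C2-/- replicates 1 to 3. All C2-/- libraries lay below all WT libraries, and the change was -1.40 (SE 0.16, limma adjusted p = 0.000323), or 2.65-fold lower. The beta subunit gene *Scn4b* was 9.45, 9.42, 9.60 and 9.08 in WT and 7.24, 7.33 and 7.33 in C2-/-. The C2-/- libraries spread by less than 0.1, and the change of -2.09 (SE 0.16, limma adjusted p = 0.000162) was 4.26-fold.

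The GC correction left *Scn4b* past the threshold, and the call of *Scn4a* depended on how it was fitted. *Scn4b* was still lower (-1.14, SE 0.16, limma adjusted p = 0.00229). *Scn4a* was lower by less than the fold minimum (-0.45, SE 0.14, limma adjusted p = 0.044). With the correction fitted over genes with log2 means of 3 or more, the log2 change of Scn4a was -0.62 (limma adjusted p = 0.0064) and past the threshold. The transcripts of *Scn4b* and *Scn4a* have nearly the same base composition, 54.5% and 54.6% GC. The difference *Scn4b* minus *Scn4a* within a library was 0.53, 0.22, 0.43 and 0.23 in WT and -0.53, -0.14 and -0.34 in C2-/-, so that *Scn4b* was the more abundant of the pair in reads in every WT library and the less abundant in every C2-/- library. The mean difference shifted by -0.69, and by -0.69 after the correction.

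Of the other sodium channel genes, *Scn7a* rose. It encodes a channel that responds to the sodium concentration and is known from glia and other cells outside the muscle fibre. Its values were 2.73, 2.53, 2.41 and 4.00 in WT and 4.62, 5.17 and 4.08 in C2-/-, with WT replicate 4 close under the lowest C2-/- library. The change was 1.71 (SE 0.44, limma adjusted p = 0.0103), 0.62 when the C2-/- mean was set against WT replicate 4, and 0.64 after the GC correction (limma adjusted p = 0.251). *Scn2b*, a beta subunit gene best known from nerve, was 0.94 to 2.15 in WT and -0.95 to 1.67 in C2-/- (change -1.37, limma adjusted p = 0.126, corrected -1.11), and passed only without C2-/- replicate 2 (-2.12). *Scn3a* and *Scn3b* had 22 reads each in C2-/- replicate 2 and at most 4 in the other C2-/- libraries, and neither passed, although *Scn3b* did without C2-/- replicate 2 (-3.26). Together *Scn7a*, *Scn2b*, *Scn3a* and *Scn3b* added at most 23.7 CPM in WT and 55.4 CPM in C2-/-.

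**Figure D3:**
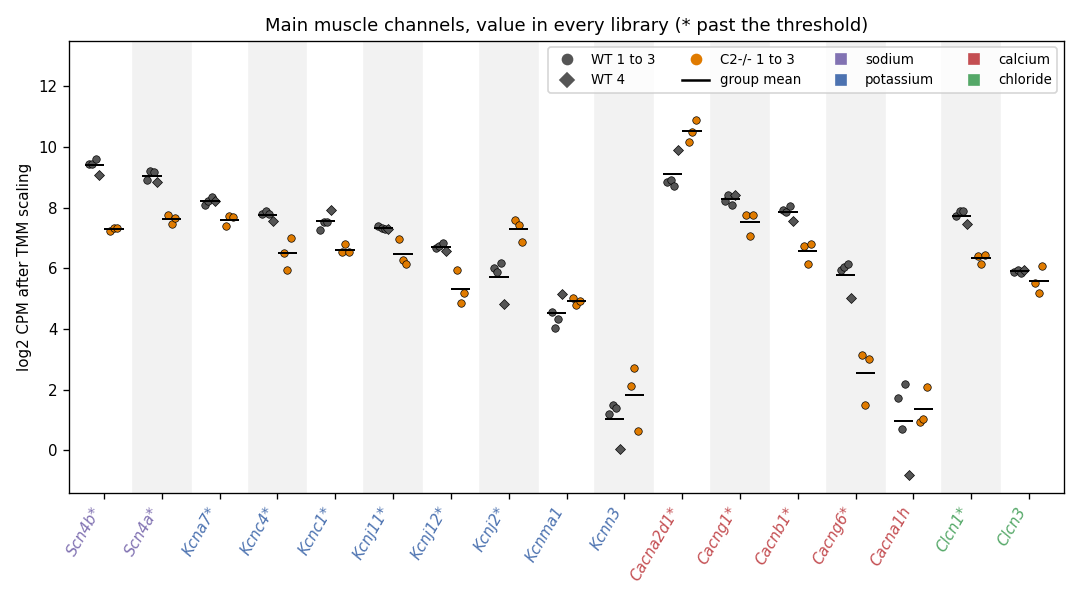
Log2 CPM of 17 main muscle channel genes in every library, grouped by ion (colour of the names), with WT 1 to 3 and C2-/- 1 to 3 as circles, WT 4 as a diamond, group means as lines and an asterisk for genes past the threshold. *Scn4b*, *Scn4a* and *Clcn1* show tight groups with the C2-/- libraries wholly below WT, and *Kcnj2* and *Cacna2d1* are the only genes of the 13 with an asterisk whose C2-/- libraries lie above WT.

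A list of 21 main muscle channels was drawn up, of which 19 were measured. Of these 15 passed, 2 higher and 13 lower, where 45.2% of all genes did and 52.9% of those with log2 means of 3 or more. After the GC correction 5 passed, 1 higher and 4 lower, where 20.6% and 25.5% did. The median change was -0.95, and 0.38 after the correction. In the order of level per length, the log2 CPM per kb of transcript, *Cacng1* (7.95) in WT stood above *Kcna7* (7.09), *Scn4b* (7.07), *Scn4a* (6.31) and *Cacna2d1* (6.20). In C2-/- *Cacna2d1* stood first (7.62), followed by *Cacng1* (7.20). *Kcnj2* moved from rank 18 to rank 7 and *Kcnab1* from rank 16 to rank 26.

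**Figure D4:**
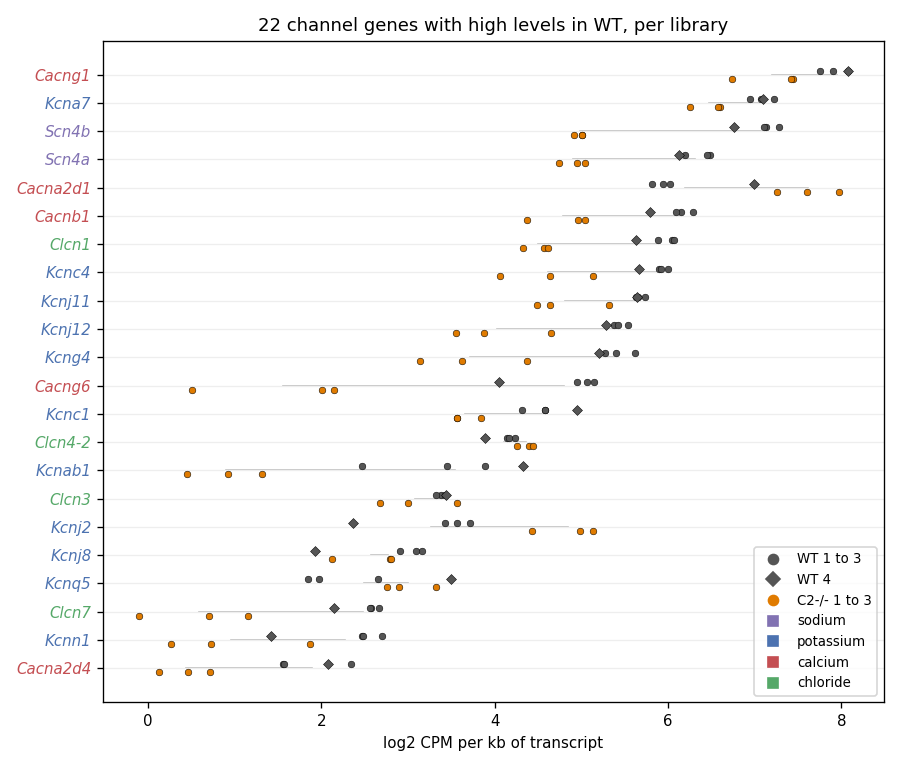
Log2 CPM per kb of transcript in every library for 22 channel genes with a high WT mean, ordered by that mean, with WT 1 to 3 and C2-/- 1 to 3 as circles, WT 4 as a diamond and a grey line between the group means. Among all 55 genes *Cacna2d1* rises from rank 6 in WT to rank 1 in C2-/-, and *Cacng6* falls from rank 13 to rank 22.

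Of the 14 potassium channel genes for voltage-gated pores or their silent partners, 7 fell and none rose (median change -1.21), where 25.0% of all genes fell and 20.2% rose. After the GC correction 1 rose and none fell (median 0.0060), where 12.3% and 8.33% did. The highest of them per length in WT was *Kcna7*, a Shaker-type pore of skeletal muscle and heart. It was 8.07, 8.20, 8.35 and 8.22 in WT and 7.38, 7.73 and 7.70 in C2-/-. The groups did not overlap, and the change of -0.61 (SE 0.15, limma adjusted p = 0.00988) was just past the fold minimum. It was -0.45 and no longer past it with median centring, did not pass without WT replicate 3 (-0.56) or without C2-/- replicate 1 (-0.50), and was 1.05 (SE 0.25, limma adjusted p = 0.0179) after the GC correction.

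The Shaw-type genes *Kcnc1* and *Kcnc4* encode fast voltage-gated potassium channels that allow rapid repolarisation. *Kcnc4* was 7.77, 7.88, 7.79 and 7.54 in WT and 6.51, 5.94 and 7.01 in C2-/- (change -1.26, SE 0.23, limma adjusted p = 0.0024). *Kcnc1* was 7.27, 7.53, 7.54 and 7.91 in WT and 6.52, 6.79 and 6.52 in C2-/- (change -0.95, SE 0.18, limma adjusted p = 0.00272). All 3 C2-/- libraries lay below all WT libraries in both genes, and the corrected changes were 0.38 and 0.42, neither past the threshold.

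*Kcng4*, a silent subunit that modifies other voltage-gated pores, was 7.20, 7.33, 7.55 and 7.13 in WT and 6.30, 5.55 and 5.07 in C2-/-. The C2-/- libraries lay lower and spread more widely, and the change was -1.66 (SE 0.26, limma adjusted p = 0.00122), or -0.28 after the correction. *Kcnh2*, of the ether-a-go-go family that repolarises the heart, was 1.77 to 2.66 in WT and -0.95 to 1.37 in C2-/- with 2 to 7 reads (change -2.32, limma adjusted p = 0.0122, corrected -0.51).

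The largest fall of a potassium channel gene was in the accessory subunit gene *Kcnab1*, whose product binds the cytoplasmic face of Shaker-type pores. It was 5.15, 5.59, 4.17 and 6.03 in WT and 3.02, 2.63 and 2.15 in C2-/-, from 276 to 720 reads and from 16 to 23 reads. The lowest WT library stood more than 1 log2 unit above the highest C2-/- library. The change was -2.64 (SE 0.42, limma adjusted p = 0.00126), or 6.22-fold lower. Its transcript is AT-rich (44.4% GC), and the corrected change was -3.24 (SE 0.40, limma adjusted p = 0.00135). It was past the threshold in all 7 fits that left out 1 library.

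The inward rectifier genes *Kcnj2* and *Kcnj12* moved in opposite directions in the deposited values, and neither passed after the GC correction. *Kcnj2* and *Kcnj12* encode strong inward rectifiers that can assemble together and hold the resting potential of muscle. *Kcnj2* was 6.01, 5.87, 6.16 and 4.81 in WT and 7.58, 7.43 and 6.87 in C2-/-. Every C2-/- library lay above every WT library, with WT replicate 4 the lowest of all, and the change was 1.58 (SE 0.32, limma adjusted p = 0.00341), or 2.99-fold higher. *Kcnj12* was 6.68, 6.72, 6.84 and 6.58 in WT and 5.96, 4.86 and 5.17 in C2-/- (change -1.37, SE 0.25, limma adjusted p = 0.00205). Within a library, *Kcnj2* minus *Kcnj12* was -1.77 to -0.67 in WT and 1.63 to 2.57 in C2-/-, so that the gene with more reads was *Kcnj12* in all WT libraries and *Kcnj2* in all C2-/- libraries. The mean of that difference shifted by 2.95, and by 0.75 after the GC correction, since the transcripts have 41.2% and 56.5% GC. The corrected changes were 0.62 (limma adjusted p = 0.264) and -0.13 (limma adjusted p = 0.637).

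*Kcnj11*, the pore of the ATP-sensitive potassium channel that links membrane potential to energy state, was 7.39, 7.31, 7.29 and 7.29 in WT and 6.97, 6.29 and 6.14 in C2-/-. The WT libraries were nearly identical and the C2-/- libraries all lower, with a change of -0.85 (SE 0.20, limma adjusted p = 0.0076) and a corrected change of 0.48 (limma adjusted p = 0.0839). Without C2-/- replicate 3 the corrected change passed as higher (0.64, limma adjusted p = 0.0376). Its regulatory subunit in muscle, *Abcc9*, was 8.37, 8.50, 8.36 and 9.62 in WT and 10.19, 10.43 and 10.12 in C2-/-. Its change was 1.53 (SE 0.29, limma adjusted p = 0.00264), against the direction of the pore gene, and its corrected change was 1.16 (limma adjusted p = 0.0161), in the same direction as the corrected change of *Kcnj11*. *Kcnj8*, the other pore that pairs with *Abcc9*, was 3.27 to 4.51 in WT and 3.47 to 4.15 in C2-/- (change -0.20, limma adjusted p = 0.662, corrected 0.55).

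Of the calcium-activated channels only *Kcnn1*, a small-conductance channel gene outside the rule for named genes and chosen after its values were seen, passed. It was 3.43 to 4.72 in WT and 2.28 to 3.89 in C2-/- (change -1.31, limma adjusted p = 0.033). The groups overlapped, the corrected change was 0.012, and the call was lost without WT replicate 1, 2 or 3 or C2-/- replicate 1 or 3 (-1.25 to -0.97). *Kcnma1*, the large-conductance channel, was 4.02 to 5.15 in WT and 4.78 to 5.01 in C2-/- (change 0.39, limma adjusted p = 0.263). It passed only without WT replicate 4 (0.61), and its corrected change was -0.11. *Kcnn3*, known in muscle for its return after denervation, was 0.03 to 1.51 in WT and 0.63 to 2.71 in C2-/- (change 0.78, limma adjusted p = 0.328), and its corrected change was 1.91 (limma adjusted p = 0.0518). It passed, higher, with GC content and length corrected together (the log2 change of Kcnn3 was 1.99, limma adjusted p = 0.0434) and with the GC correction without C2-/- replicate 3 (2.48, limma adjusted p = 0.0203).

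The noncoding *Kcnq1ot1*, which silences neighbouring genes on the paternal chromosome in the embryo, was 2.00, 2.15, 2.37 and 3.61 in WT and 4.99, 6.27 and 5.05 in C2-/-. WT replicate 4 stood above the other WT libraries and below all C2-/- libraries. The change was 2.91 (SE 0.46, limma adjusted p = 0.00116), 7.5-fold higher, and 1.85 after the correction (SE 0.40, limma adjusted p = 0.0115). *Kcnq1*, on the opposite strand, held 2 to 30 reads in WT and 0 to 3 in C2-/-. The 2 genes share 121 exon bases, and the use of strand in counting is not given in the sources used here, so reads in the shared stretch cannot be assigned to either. The same limit holds for *Clcn1*, which shares 8.20% of its exon bases with *Fam131b*. It also holds for *Cacnb4* and *Clcn4-2*, which share 15.99% and 11.49% with unmeasured noncoding genes. Other channel genes, among them *Kcnma1* (5.98%), also share exon bases with a gene on the other strand.

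The remaining 11 potassium channel genes did not pass, and their changes ran from -1.83 in *Kcna5* to 0.68 in *Kcna2*. *Kcna5*, *Kcnf1* and *Kcnq5* passed in some of the fits without 1 library (*Kcna5* at -2.28 without C2-/- replicate 1 and -2.40 without C2-/- replicate 3, *Kcnf1* at -2.06 without C2-/- replicate 1, *Kcnq5* at 0.84 without WT replicate 4, and also with the replicate block).

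In the deposited values the calcium channel subunits did not move together, and after the GC correction the changes of 3 of them were alike. In muscle the voltage sensor is a complex of the pore with the products of *Cacna2d1*, *Cacnb1* and *Cacng1*. *Cacna2d1*, the extracellular alpha2delta subunit, was 8.84, 8.92, 8.72 and 9.89 in WT and 10.16, 10.50 and 10.87 in C2-/-. WT replicate 4 stood between the other WT libraries and the C2-/- libraries, and the change was 1.42 (SE 0.29, limma adjusted p = 0.00358), or 0.62 against WT replicate 4 alone. *Cacnb1*, the cytoplasmic beta subunit that carries the complex to the tubule, was 7.91, 7.86, 8.05 and 7.56 in WT and 6.72, 6.13 and 6.80 in C2-/- (change -1.29, SE 0.20, limma adjusted p = 0.00112). *Cacng1*, the gamma subunit, was 8.23, 8.40, 8.07 and 8.40 in WT and 7.76, 7.06 and 7.74 in C2-/- (change -0.75, SE 0.20, limma adjusted p = 0.0122). Both were lower in every C2-/- library, but the call of *Cacng1* was lost without C2-/- replicate 2 (-0.52). After the GC correction the changes of *Cacna2d1*, *Cacnb1* and *Cacng1* were 0.41, 0.36 and 0.41, and none passed, although *Cacna2d1* did without WT replicate 4 (0.59). The difference *Cacna2d1* minus *Cacnb1* within a library was 0.66 to 2.33 in WT and 3.44 to 4.37 in C2-/-, a mean shift of 2.71 that became 0.045 after the correction.

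*Cacng6*, a gamma subunit gene related to *Cacng1*, had the largest fall of the 55 genes. It was 5.94, 6.05, 6.13 and 5.03 in WT and 3.13, 1.49 and 2.99 in C2-/-, from 143 to 1075 reads and from 7 to 38 reads. The groups were far apart, with WT replicate 4 the lowest WT library. The change was -3.25 (SE 0.43, limma adjusted p = 0.000561), or 9.50-fold lower, and -2.55 (SE 0.36, limma adjusted p = 0.00247) after the correction. The difference *Cacng6* minus *Cacng1* within a library was -3.37 to -1.94 in WT and -5.57 to -4.63 in C2-/-. The pair thus moved apart by 2.49 on the log2 scale (a shift of -2.49, and of -2.96 after the correction).

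Of the other calcium channel genes 2 passed. *Cacna2d4*, an alpha2delta gene known from the retina, was 4.09 to 4.89 in WT and 2.67 to 3.25 in C2-/- (change -1.45, limma adjusted p = 0.00416, corrected -0.83). With the correction over genes with log2 means of 3 or more, the log2 change of Cacna2d4 was -0.97 (limma adjusted p = 0.0404), past the threshold. *Cacnb4*, a beta subunit gene of the brain, had 2 to 20 reads in WT and 9 to 24 in C2-/- from shallower libraries (change 2.63, limma adjusted p = 0.0117, corrected 1.59). *Cacna1h*, a T-type pore, was -0.81 to 2.20 in WT and 0.92 to 2.09 in C2-/- (change 0.40, limma adjusted p = 0.683), with a negative change without WT replicate 4 (-0.19) and a corrected change of 2.07 (limma adjusted p = 0.0565). The pores *Cacna1a* and *Cacna1c* and the subunits *Cacnb2*, *Cacnb3*, *Cacng7* and *Cacna2d2* did not pass, although *Cacnb3* did without C2-/- replicate 1 (-2.79) and *Cacna1a* without C2-/- replicate 2 (1.42). After the GC correction *Cacna1a*, *Cacna2d2* and *Cacng7*, chosen after their values were seen, were higher by 2.33, 2.50 and 1.71, with C2-/- libraries of 7 to 37, 4 to 14 and 10 to 20 reads.

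Among the chloride channels *Clcn1*, which carries the resting chloride conductance of muscle and whose loss causes myotonia, fell. It was 7.71, 7.88, 7.89 and 7.46 in WT and 6.39, 6.15 and 6.44 in C2-/-. The gap between the groups was wider than either group, and the change was -1.41 (SE 0.17, limma adjusted p = 0.000393), or 2.65-fold lower. It remained past the threshold after the GC correction (-0.82, SE 0.14, limma adjusted p = 0.00482). *Clcn1* made up 49.97% to 57.1% of the chloride channel sum in WT and 31.2% to 33.8% in C2-/-. The other 5 genes together were 176 to 188 CPM in WT and 155 to 191 CPM in C2-/-, with overlapping groups.

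*Clcn7*, the chloride-proton exchanger of lysosomes, was 4.65, 4.75, 4.64 and 4.23 in WT and 3.24, 1.97 and 2.79 in C2-/-. Its C2-/- libraries held 10 to 33 reads and all lay below WT, with a change of -1.90 (SE 0.34, limma adjusted p = 0.00202) and a corrected change of -0.95 (limma adjusted p = 0.0344). Its partner subunit *Ostm1* was 5.35 to 5.82 in WT and 5.81 to 6.69 in C2-/- (change 0.60, limma adjusted p = 0.0615, corrected 0.082). The endosomal exchanger *Clcn3* was 5.83 to 5.95 in WT and 5.19 to 6.07 in C2-/- (change -0.31, limma adjusted p = 0.266), and -1.28 (limma adjusted p = 0.00437) after the correction. *Clcn4-2* was 6.09 to 6.43 in WT and 6.46 to 6.64 in C2-/- (change 0.26, limma adjusted p = 0.208, corrected 0.079). The surface channel gene *Clcn2* was 2.85, 2.92, 3.05 and 4.56 in WT and 4.15, 3.89 and 3.83 in C2-/-. Its call hung on WT replicate 4, which stood above every C2-/- library. The change was 0.61 (limma adjusted p = 0.257) with that library and 1.01 (limma adjusted p = 0.0109) without it, and the corrected change was 1.90 (limma adjusted p = 0.0234).

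**Figure D5:**
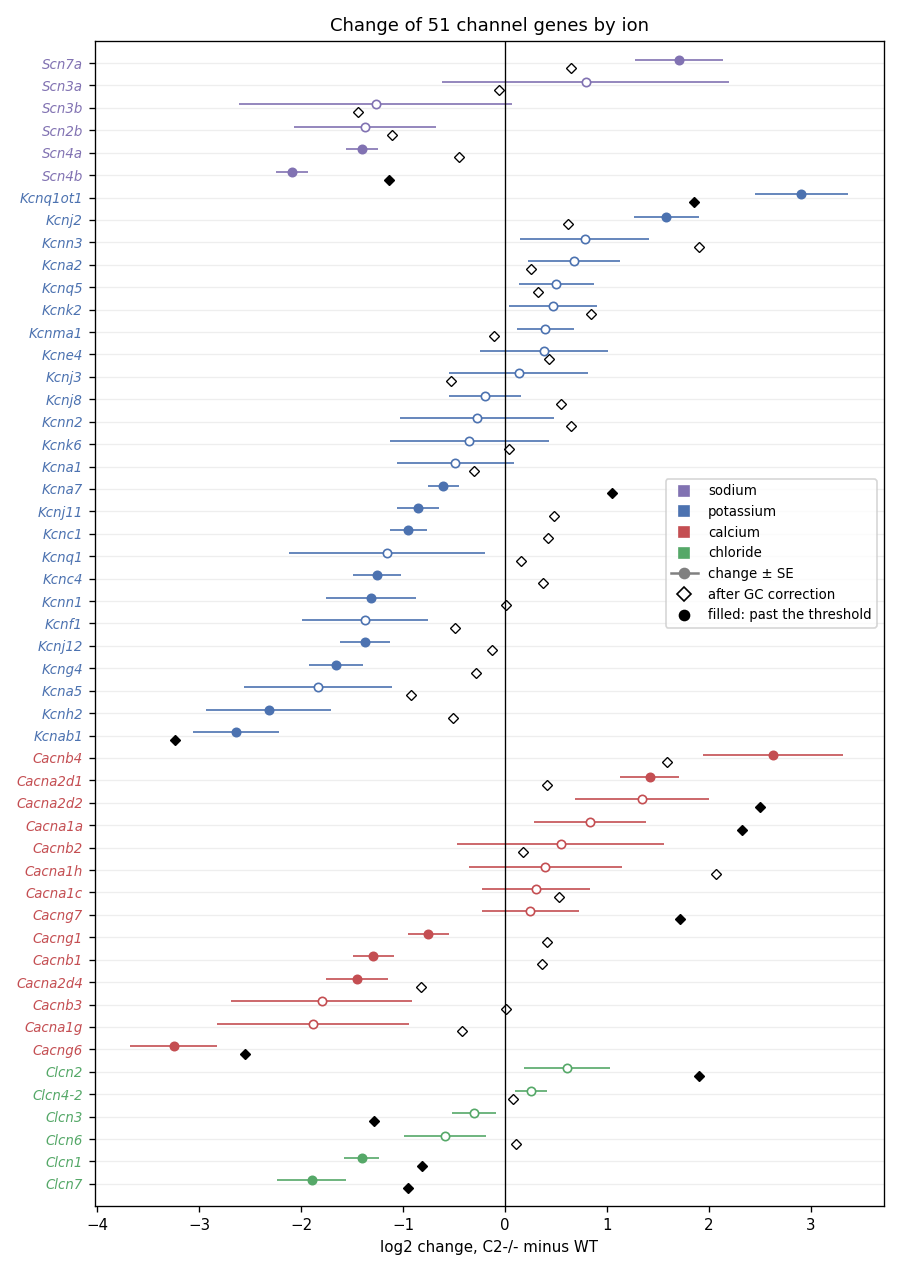
Log2 change (C2-/- minus WT) of 51 channel genes by ion, as circles with SE bars from the deposited values and as diamonds after the GC correction, filled where the gene passed the threshold. Of the 22 filled circles 17 lie below 0. Of the 12 filled diamonds 6 do, among them *Kcnab1* (-3.24), *Cacng6* (-2.55) and *Scn4b* (-1.14).

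Some of the channel genes are neighbours of the targeted gene. *Kcna7*, *Kcnj11* and *Kcnc1* lie within 2 Mb of *Mybpc2* on chromosome 7 (0.881, 1.57 and 1.87 Mb away), and their changes were -0.61, -0.85 and -0.95, or 1.05, 0.48 and 0.42 after the GC correction. The part of this position in their changes was not tested.

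Genes that work with the channels were then counted. Of 23 listed partner and scaffold genes, 17 were measured, and 4 rose and 6 fell, with 5 higher and 3 lower after the GC correction. The shares to set beside this count and those of the next lists are 45.2% of all genes past the threshold, 20.2% higher and 25.0% lower, and 20.6% after the correction, 12.3% higher and 8.33% lower. The partner genes include some that couple the tubule to the sarcoplasmic reticulum. *Jph2*, a junctophilin that holds both membranes together, was 9.87, 10.03, 9.98 and 9.15 in WT and 7.26, 6.12 and 6.87 in C2-/- (change -3.01, limma adjusted p = 0.000231, corrected -1.16 with an adjusted p of 0.00168). *Stac3*, which the voltage sensor needs to reach the tubule and gate release, was 7.94, 8.02, 7.85 and 7.17 in WT and 5.90, 4.88 and 5.71 in C2-/- (change -2.25, limma adjusted p = 0.000447, corrected -1.29 with an adjusted p of 0.00322). *Ryr1*, the release channel, had a change of -1.35 (limma adjusted p = 0.00195) and a corrected change of 0.10. *Jph1* had a change of 0.54 (limma adjusted p = 0.038) that was under the fold minimum, and a corrected change of 0.21.

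The ankyrin genes *Ank2* and *Ank3* and the sodium channel modulator gene *Fgf13* rose by 1.19, 0.94 and 1.37. After the correction they rose by 1.22, 0.84 and 0.99 (limma adjusted p = 0.0468, 0.019 and 0.0226) and stayed past the threshold. Against WT replicate 4 alone the uncorrected changes were 0.45, 0.36 and 0.60. In *Ank2* the groups overlapped, with WT replicate 4 at 6.85 and C2-/- replicate 3 at 6.37. *Lrrc38*, an auxiliary subunit gene of the large-conductance potassium channel, fell by 2.46 on the log2 scale (limma adjusted p = 0.000977, corrected -0.95 with an adjusted p of 0.0633).

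Of 14 genes of the sodium pump and related transporters, 13 were measured, and 2 rose and 3 fell, with 6 higher and 0 lower after the correction by limma. The pump beta subunit gene *Atp1b1* was 7.03 to 7.76 in WT and 7.87 to 9.16 in C2-/- (change 1.04, limma adjusted p = 0.0154, corrected 1.13 with an adjusted p of 0.03). Of 41 genes of other channel families, 34 were measured, and 4 rose and 14 fell, with 1 higher and 5 lower after the correction. *Tmem38a*, a potassium-permeable channel of the sarcoplasmic reticulum, was 10.23 to 10.54 in WT and 8.21 to 8.75 in C2-/- (change -1.85, limma adjusted p = 0.000231, corrected -1.04 with an adjusted p of 0.00242).

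Markers of cell types that could bring channel RNA into the tissue were counted against the same background, 45.2% of all genes past the threshold and 20.6% after the GC correction. All 7 muscle fibre markers were measured at a high level, 5 of them fell (2 after the correction), and their summed level was 139274 to 170748 CPM in WT and 70722 to 89507 CPM in C2-/-. All 4 fibroblast markers rose (2 after the correction), with sums of 339 to 521 and 1248 to 1424 CPM. Of 8 smooth muscle and pericyte markers 1 rose and 2 fell, and their sums were 670 to 1049 and 1362 to 1816 CPM, and 2 rose after the correction. *Abcc9* alone was 328 to 787 and 1112 to 1375 CPM of that sum, and the other 7 were 262 to 378 and 251 to 442 CPM, which overlap. Of 10 Schwann cell and nerve markers 6 were measured and 1 fell, with sums of 66.6 to 134 and 70.8 to 109 CPM. One of 5 endothelial markers fell (285 to 463 and 249 to 327 CPM), 1 of 4 macrophage markers fell (11.4 to 26.7 and 9.11 to 20.99 CPM, *C1qa* at 0 reads in C2-/- replicates 2 and 3), and 1 of 3 adipocyte markers rose, *Fabp4* before and *Plin1* after the correction (157 to 360 and 466 to 632 CPM). The Schwann cell and nerve, endothelial and macrophage sums overlapped between the groups, and by limma 0 of these 15 markers passed after the correction (4 had an unadjusted p under 0.05). Of 6 denervation genes 5 were measured, 2 rose and 2 fell (1 and 1 after the correction), with sums of 42.0 to 59.2 and 52.8 to 76.4 CPM and *Myog* at 0 reads in C2-/- replicates 2 and 3. The part of these cell types in the channel changes was not tested.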

How the data were processed

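RNA from TA muscle was selected with oligo(dT), fragmented, converted to cDNA and sequenced as DNA nanoballs. The authors aligned the reads with HISAT to GRCm38.p6, counted them per gene with featureCounts (v1.5.2), scaled the libraries by TMM in edgeR and deposited log2 values for 12239 genes. The filter behind that number and the handling of strand and multiply mapped reads were not given in the sources used here. A second deposited table, the authors' own limma comparison with fold changes, scores and p-values, was not used. Groups and replicate numbers came from the sample titles. The series' design text gives 4 animals in each group, and 3 C2-/- libraries were analysed.

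The deposited log2 values returned whole reads in 100.0% of cases (within 0.01 reads). Totals ranged from 2613277 to 15464499 reads, and 3 reads corresponded to 0.195 to 1.12 CPM, a floor that covers counting error only. Every pair of libraries differed by more than counting error (chi-square per degree of freedom of at least 9.12), so all 7 were counted separately. The main test was limma (3.58.1, R 4.3.3) with a mean-variance trend, genotype as the only term, a two-sided p and Benjamini-Hochberg adjustment over all genes. Since the values are log2, no count model was the main test, and voom on the recovered reads was an alternative, which called 6015 genes and 25 channel genes. On simulated data with 12239 genes, the test found 45 of 100 genes changed 2-fold and 99 of 100 changed 4-fold, and called 6 unchanged genes. The simulation gave every gene the same spread between libraries and held no GC trend. Its changed genes were drawn only from those with more reads. These figures therefore do not give the error rate in the real data.

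GC content came from the longest protein-coding transcript of each gene, or the longest transcript where none was protein-coding (as for *Kcnq1ot1*), in GENCODE annotation of GRCm38 (12176 genes matched, 358 by another symbol, and all 55 channel genes). The correction used a natural spline with 5 degrees of freedom. Genes were named from the list of main muscle channels, the 4 largest rises and falls per ion among non-overlapping genes past the threshold whose log2 mean was 1 or more in the higher group, and the 5 highest per kb of transcript per ion. Other channel genes with values in the text were chosen after their values were seen. Alternatives were other scalings, filters on low values, thresholds, variance models, thinned reads, the replicate block and leaving out each library. The members and the lists were chosen with earlier results of these data known. Some channel genes and related genes are not reported here by name, and remain in the counts and sums.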

Additional observations from a re-analysis of the deposited data

Results flagged for a closer look

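Depth and the named channel genes were screened for a WT library that stood apart, by Dixon's ratio of the gap beside an extreme value to the whole range against its 95% critical value. Of 34 values tested, 3 were singled out, where chance gives about 1.7 (1 in 20). The C2-/- group, with 3 libraries, was too small for this check.

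The depth of WT replicate 4 was 4683853 reads, and that of WT replicates 1 to 3 was 14929214 to 15464499. The *Clcn2* value of WT replicate 4 was 4.56, against 2.85 to 3.05 in the others. In *Kcnh2* WT replicate 1 stood at 1.77, against 2.62 to 2.66, and the gene was past the threshold in all 7 fits that left out 1 library.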

How the results depend on the processing

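The counts of channel genes past the threshold were 25 in all, 5 higher and 20 lower, with 13 potassium, 6 calcium, 2 chloride and 4 sodium channel genes, beside 5528 of all genes. The GC correction gave 12 (6 higher, 6 lower, 3 potassium, 4 chloride, 1 sodium) beside 2508. With transcript length corrected as well there were 13 (6 lower, 4 potassium, 4 chloride, 1 sodium) beside 2507. The GC correction over genes with log2 means of 3 or more gave 11 (3 higher, 8 lower, 3 potassium, 2 calcium, 4 chloride, 2 sodium) beside 2230. Quantile normalization gave 8 higher. At an adjusted p under 0.01, 3 were higher, beside 3216 of all genes. Without 1 library the counts were 22 to 28 (5 to 8 higher, 17 to 21 lower, 10 to 15 potassium, 6 to 7 calcium, 2 to 3 chloride, 4 to 6 sodium) beside 4095 to 6136, and the highest number higher (8) came without WT replicate 4. With the GC correction and without WT replicate 4 or 1 C2-/- library they were 11 to 14 (4 to 8 higher, 6 to 8 lower, 2 to 4 potassium, 4 to 5 calcium, 3 to 4 chloride, 1 to 3 sodium) beside 2475, 2267, 2452 (C2-/- replicates 1, 2 and 3 in turn) and 3129 (WT replicate 4). Of the 25 genes, 21 (84.0%) were past the threshold in all 7 fits without 1 library, as were 3722 of the 5528 of all genes (67.3%). The fits that join the GC correction with leaving out a C2-/- library were added after the data were seen.

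The labels do not state that libraries with the same replicate number are pairs. The correlations of same-numbered deviations were 0.05, -0.06 and -0.05, and no C2-/- library correlated best with its own number. With so few libraries in each group, these values cannot exclude a pairing. With the replicate block, 27 channel genes passed (7 higher, 20 lower) beside 5901 of all genes. WT replicate 4 has no partner and adds nothing to that fit. The block with the GC correction gave 13 (8 higher, 5 lower, 5 potassium, 3 calcium, 2 sodium) beside 2915. In that fit *Clcn7* (-0.99), *Cacna2d2* (2.45) and *Cacng7* (1.54) were no longer past the threshold, and the genes that were higher there and not in the GC-corrected fit without the block included *Cacna2d1* (0.59), *Kcnc1* (0.65) and *Kcnq5* (0.66).

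Directions turned mainly under the GC correction. Under the GC correction, the GC and length correction, the block with GC correction and the GC correction at log2 means of 3 or more, the changes were, in that order, 0.36, 0.45, 0.40 and 0.16 in *Cacnb1*, 0.41, 0.23, 0.54 and 0.22 in *Cacng1*, 0.38, 0.46, 0.44 and 0.17 in *Kcnc4*, 1.05, 1.07, 1.18 and 0.85 in *Kcna7*, 0.48, 0.57, 0.58 and 0.28 in *Kcnj11*, and 0.42, 0.42, 0.65 and 0.22 in *Kcnc1*. With the GC correction and without 1 library they were 0.24 to 0.47, 0.29 to 0.54 (0.50 without C2-/- replicate 2), 0.12 to 0.55, 0.79 to 1.35 (the log2 change of Kcna7 was 1.005 without C2-/- replicate 3), 0.39 to 0.64 and 0.17 to 0.65 in these genes. The log2 change of Kcnma1 turned to -0.11, -0.17 (with length) and -0.19 (log2 means of 3 or more), and to -0.17, -0.056 and -0.098 without C2-/- replicates 1, 2 and 3. The log2 change of Kcnn1 turned to 0.012, 0.087 (with length) and 0.29 to 0.35 without C2-/- replicate 1 or 3. Without C2-/- replicate 3 and GC-corrected, *Kcnh2* was 0.023 and *Kcng4* 0.0022. *Clcn4-2* was -0.037 GC-corrected at log2 means of 3 or more. Without the GC correction, *Cacna1h* was -0.18 with array quality weights, -0.17 in thinned reads, -0.19 with the block and -0.19 to 0.81 without 1 library (lowest without WT replicate 4), and *Cacng7* was -0.036 with the block and -0.036 to 0.50 without 1 library (lowest without WT replicate 4). The cause was not tested. Depth limits the genes with few reads, where 3 reads were up to 1.12 CPM.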
